A study of Mus musculus with 35 samples.

Results

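The quantity described here is the change in the nuclear to cytoplasmic ratio of each RNA when Chtop was put back into cells that had lost it. For each gene it is the log2 ratio of nuclear to cytoplasmic abundance in rescued cells minus the same ratio in knockdown cells, called the shift. A negative shift means that less of the RNA, relative to other RNAs, was nuclear after rescue. The design fixed the comparison: the 16 nuclear and cytoplasmic libraries labelled rescue or knockdown, of 35 libraries in all, 8 on each side, with equal weight given to 2 cell lines. Both lines were N2a Flp-In rtTA mouse neuroblastoma cells, in which a FLAG-tagged Chtop cDNA that the siRNA does not match is switched on by doxycycline. The mEx5 line carried the cDNA without exon 5 and the pEx5 line the cDNA with it. Knockdown cells received a Chtop siRNA, rescued cells the same siRNA and then doxycycline, and control cells a non-targeting pool. Every group had 2 biological replicates, apart from the pEx5 cytoplasmic control with 1 library. Cells were harvested at 72 h; control cells came from 2 dishes and the others from 3. No library received doxycycline with the control siRNA, so that the agent, the tagged protein and the rescue cannot be told apart. Each line stands for 1 cDNA, so that a difference between the isoforms and one between the lines cannot be told apart either.

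Chtop is an RNA-binding protein of the cell nucleus that works with TREX, the complex that couples transcription and processing of mRNA to its export. TREX recruits the NXF1 receptor, which carries mRNA through the nuclear pore. Chtop also binds its own transcript and is known to control the retention of an intron in it. The cassette exon that separates the cDNAs is shown because it is the only named difference between them. It is 138 bases long, in a minus-strand gene, at chr3:90502116-90502253 (mm10, GENCODE M21), and is exon 5 of transcript Chtop-202 and exon 4 of Chtop-201, while Chtop-207 skips it. The labels do not say which annotation their exon number follows.
Chtop exon 5: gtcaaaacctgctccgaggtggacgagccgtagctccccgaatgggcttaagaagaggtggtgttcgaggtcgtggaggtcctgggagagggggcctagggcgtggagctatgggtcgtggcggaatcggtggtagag

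The sequencing depth, as total counts, was between 11681781 and 19693925 in rescued nuclei, 16605353 and 24941762 in knockdown nuclei, 23713623 and 40105458 in rescued cytoplasm, and 19478702 and 36510535 in knockdown cytoplasm. The nuclear RNA Malat1 lay between 926.5 and 1243 CPM in the nuclear libraries of both conditions and between 52.9 and 76.4 CPM in the cytoplasmic ones. Neat1, a second nuclear RNA, lay between 194.6 and 353.2 CPM in these nuclear libraries. In cytoplasm it was higher in replicate 1 than in replicate 2 of each rescue and knockdown group. The mEx5 values were 54.4 and 25.8 CPM under knockdown and 40.9 and 30.4 CPM after rescue. The pEx5 values were 42.7 and 18.4, then 35.0 and 22.5 CPM. The mEx5 controls, at 16.9 and 24.8 CPM, had the other order. The part of the replicate difference in the shifts was not tested. Levels are given in CPM, each gene's counts scaled to the size of its library with TMM factors. Among the markers of the labelled cell type, 11 of 15 noradrenergic neuroblastoma genes had a mean over 1 RPKM, with Phox2a, Hand2 and Chga high. The summed fibroblast markers stayed between 1.43 and 2.34 RPKM, and their collagen genes were at or near 0.

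Across the transcriptome 2 genes passed the test for the shift over both lines, Rbm15 and Chtop, and both were lower. That is 0.0216% of 9239 genes tested, at an adjusted p under 0.05 (edgeR's quasi-likelihood F test, p adjusted by Benjamini and Hochberg's method over all genes). No gene was called higher in this fit, which had no replicate block. Without adjustment, 162 genes (1.75%) had p under 0.05 and a lower ratio, and 87 genes (0.942%) a higher one, 2.70% in all. DESeq2 called 4 lower genes and no higher one. With the replicate number as a block, edgeR called 43 lower genes, Rbm15 and Chtop among them, and 1 higher one. The interquartile range of the shift was -0.08 to 0.09, and the median standard error (SE) was 0.14, so most shifts were smaller than their own error. One gene, Rbm15, had a shift of 2-fold or more downwards, and 6 had one upwards, none of them called.

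Chtop itself, the targeted gene, was measured first, with the cDNA and the endogenous transcript counted together. In nuclei, knockdown libraries held 65.0 and 74.1 CPM (mEx5), 59.6 and 61.8 CPM (pEx5). Rescued nuclei held 254 and 275 CPM (mEx5), 309 and 226 CPM (pEx5). In cytoplasm, the knockdown libraries held 25.3 and 30.03, then 20.1 and 17.1 CPM, and the rescued ones 169 and 186, then 196 and 172 CPM. Rescue libraries were above knockdown libraries in both fractions with no overlap, and also above the controls, which lay between 95.5 and 129 CPM in nuclei and between 136 and 148 CPM in cytoplasm. The nuclear means were 65.1 ± 6.37 CPM under knockdown and 266 ± 35.0 CPM after rescue, and the cytoplasmic ones 23.1 ± 5.71 and 181 ± 12.3 CPM (SD, n = 4 each). The rise was 2.03 in nuclei (SE 0.11, adjusted p = 1.8e-08) and 3.00 in cytoplasm (SE 0.11, adjusted p = 8.6e-11) on the log2 scale, both from edgeR. The smaller nuclear rise made Chtop's shift -0.97 (SE 0.15, edgeR adjusted p = 0.030), a ratio 1.95-fold lower.

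The log2 ratio of Chtop was 1.36 and 1.30 in the mEx5 knockdown cultures and 1.56 and 1.85 in the pEx5 ones. After rescue it was 0.59 and 0.56, then 0.66 and 0.39. The control cultures had -0.20, -0.18 and -0.24, so that the 3 conditions did not overlap and the rescued ratio lay between the others. The mEx5 line gave a shift of -0.76 and the pEx5 line one of -1.17. Their difference, -0.42 (SE 0.29), did not pass (edgeR adjusted p = 1.00). The call was kept in 5 of the 16 fits that left out 1 library, with adjusted p up to 0.18 without replicate 2 of the pEx5 cytoplasmic knockdown.

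**Figure D1:**
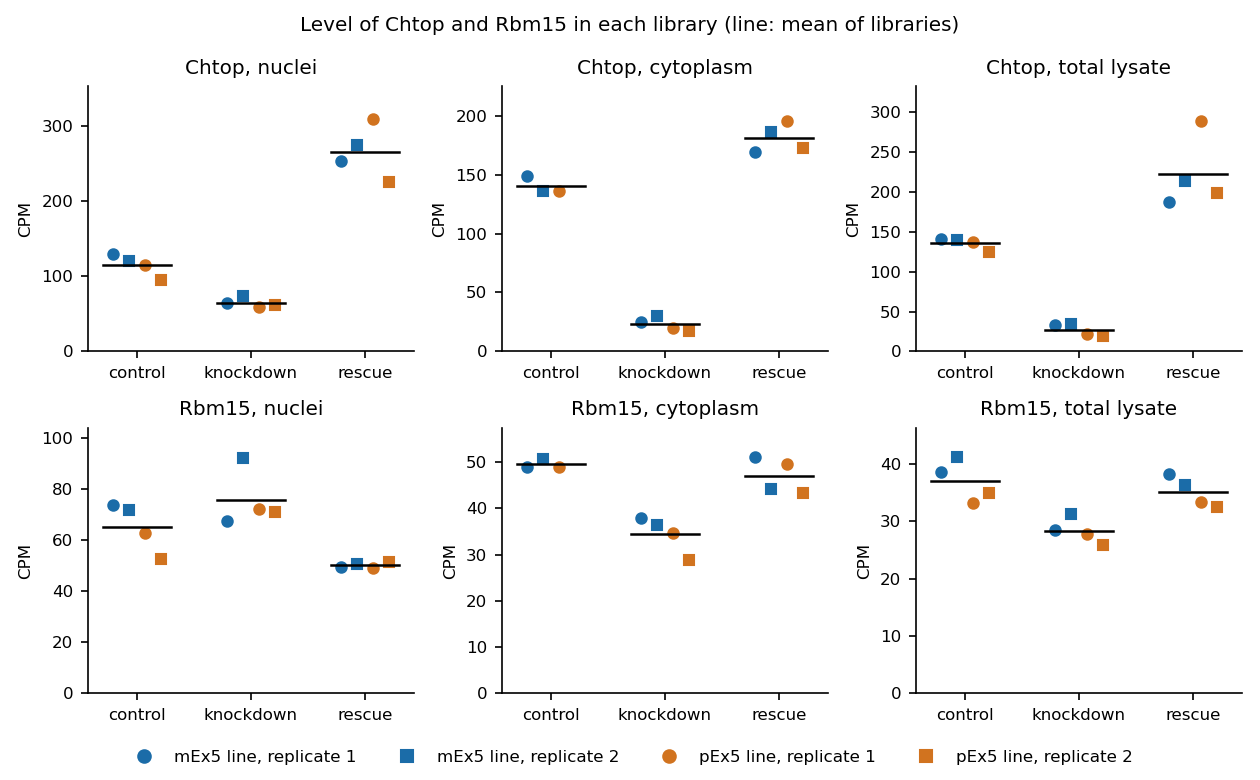
Level of Chtop (top) and Rbm15 (bottom) in CPM in nuclei, cytoplasm and total lysate, 1 point a library, with colour for the line, shape for the replicate and a bar for the mean. Chtop is lowest in knockdown and highest in rescue in each fraction, while rescued nuclei hold less Rbm15 than knockdown nuclei and rescued cytoplasm holds more.

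Rbm15 encodes an RNA-binding adaptor of the m6A writer complex, the enzyme complex that methylates adenosines in mRNA. The gene (ENSMUSG00000048109.10) lies at chr3:107325421-107333673 on the minus strand of mm10. Nearly all of its protein is encoded in a single exon: 2866 coding bases lie in exon 1 of its 2-exon transcript, which spans chr3:107330215-107333673. In knockdown nuclei Rbm15 stood at 67.5 and 92.2 CPM (mEx5) and 72.3 and 70.9 CPM (pEx5). Rescued nuclei held 49.5, 50.6, 48.9 and 51.5 CPM in the same order. In cytoplasm the order was turned: 37.9, 36.5, 34.7 and 28.7 CPM in knockdown and 51.1, 44.2, 49.6 and 43.3 CPM in rescue. Neither fraction showed an overlap between the conditions. Means were 75.7 ± 11.2 and 50.1 ± 1.15 CPM in nuclei and 34.4 ± 4.02 and 47.0 ± 3.86 CPM in cytoplasm (SD, n = 4 each), knockdown first.

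The nuclear part of the Rbm15 change was -0.59 (SE 0.098, edgeR adjusted p = 0.030) and the cytoplasmic part 0.45 (SE 0.098), which did not pass (adjusted p = 0.35). Together they gave a shift of -1.05 (SE 0.14, edgeR adjusted p = 0.010), a 2.07-fold lower ratio. The lines gave -1.03 (mEx5) and -1.06 (pEx5), and their difference was -0.03 (SE 0.28). Taken by replicate number, the 4 pairs of a rescued and a knockdown culture gave -0.88, -1.14, -1.08 and -1.05. In each pair the log2 ratio went from between 0.83 and 1.34 under knockdown to between -0.05 and 0.25 after rescue. Control cultures lay between these groups, at 0.59, 0.49 and 0.36. The call was kept in 13 of 16 fits that left out 1 library; the other 3 gave adjusted p of 0.056, 0.056 and 0.052, without replicate 1 of the mEx5 rescue in nuclei or in cytoplasm, or without replicate 2 of the pEx5 cytoplasmic knockdown. With the 16 libraries alone in the fit, Rbm15 had an adjusted p of 0.063 and Chtop one of 0.098. In total lysate, a readout the shift does not use, the change of Rbm15 was 0.31 (SE 0.063, edgeR adjusted p = 0.42). The authors' deposited table gives differences of -1.05 and -1.03 for Rbm15 and of -0.91 and -1.49 for Chtop, in the mEx5 and pEx5 line.

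**Figure D2:**
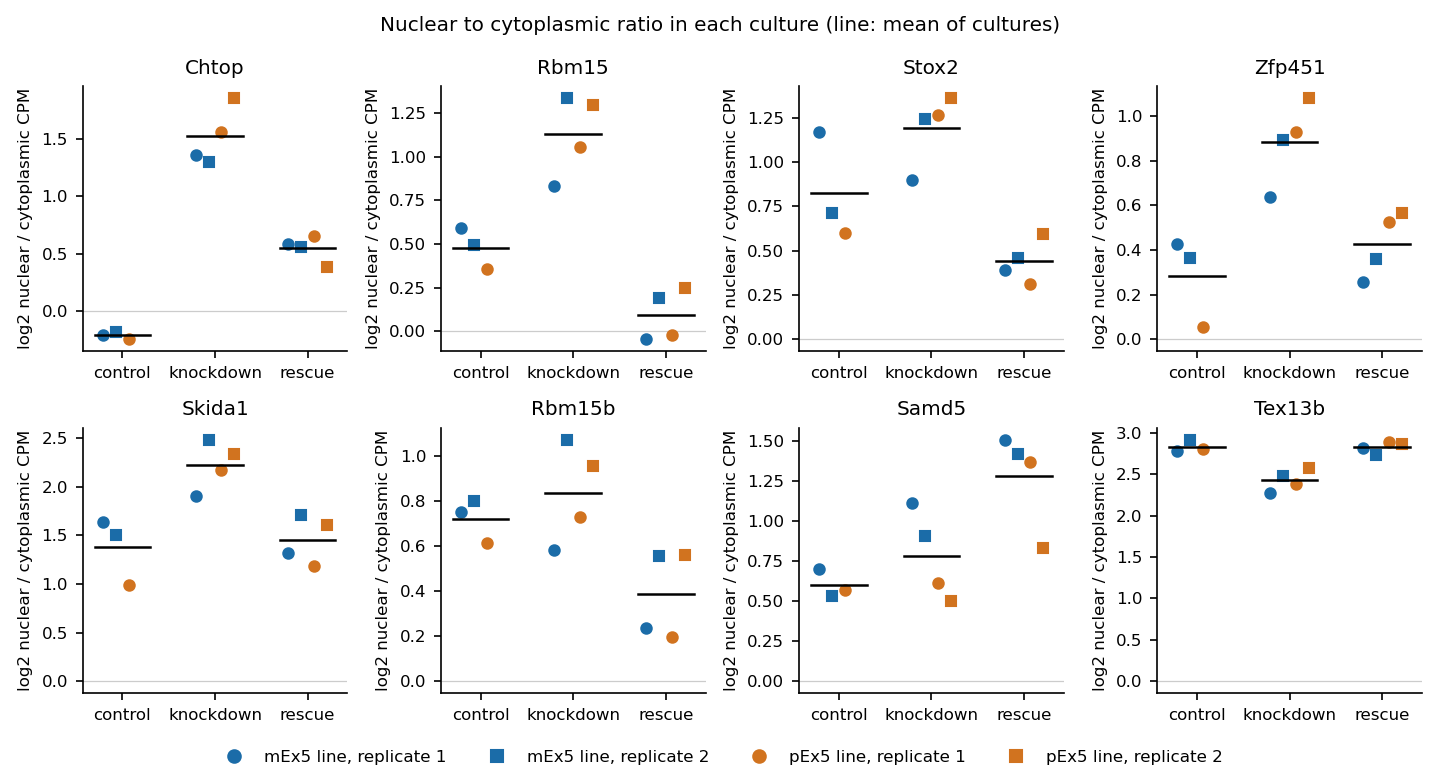
Log2 ratio of nuclear to cytoplasmic CPM of 8 genes in each culture, 1 point a culture, with a bar for the mean over cultures. In Chtop, Rbm15, Stox2, Zfp451, Skida1 and, narrowly, Rbm15b every rescue culture lies below every knockdown culture. Tex13b is higher in every rescue culture, and Samd5 overlaps.

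The genes next in order of p were lower without passing in the main edgeR fit. DESeq2 called Stox2 (adjusted p = 1.1e-04) and Iqgap1 (adjusted p = 0.031) as well, and with all 35 libraries in the edgeR fit Stox2 had an adjusted p of 0.0096. Stox2, a gene of a winged-helix domain protein, had a shift of -0.75 (SE 0.13, edgeR adjusted p = 0.097). Its nuclear level, 480, 520, 544 and 482 CPM under knockdown and 343, 360, 320 and 354 CPM after rescue, fell by 0.56 (edgeR adjusted p = 0.030), while its cytoplasmic part was 0.19. The fall in nuclei left Stox2 above its controls, which were between 248 and 292 CPM. For Stox2 the authors' deposited table gives smaller differences, -0.12 (mEx5) and -0.50 (pEx5), than the fit here, -0.64 and -0.85.
Zfp451, a zinc finger gene linked to SUMO conjugation, had 92.7, 101, 119 and 110 CPM in knockdown nuclei and 67.8, 68.2, 79.4 and 79.2 CPM after rescue. Its nuclear part was -0.52 (edgeR adjusted p = 0.010), its cytoplasmic part -0.06 and its shift -0.46 (adjusted p = 0.87).
Skida1, named for its place among the lowest p and so chosen after its values were seen, had 133, 150, 129 and 117 CPM in knockdown nuclei and 64.4, 94.8, 63.3 and 82.7 CPM after rescue, a nuclear part of -0.79 (edgeR adjusted p = 0.030). Its shift was -0.74 and its cytoplasmic part -0.04. The lines gave -0.64 (mEx5) and -0.84 (pEx5), where the authors' deposited table gives -0.23 and -0.96. Epm2aip1, also seen only afterwards, completes the 5 genes (0.0541%) called lower in nuclei with Rbm15, Stox2, Zfp451 and Skida1, at -0.81 (edgeR adjusted p = 0.022). Chtop was the 1 gene called higher there (0.0108%, and 0.0649% for all 6 calls). Leaving out single libraries gave between 1 and 16 nuclear calls in place of 6, with 1 without replicate 2 of the mEx5 knockdown nuclei and 16 without replicate 2 of the pEx5 rescue nuclei. DESeq2 called 89 genes in nuclei, 26 higher and 63 lower, and edgeR with all 35 libraries 37, 10 higher and 27 lower. With the replicate number as a block edgeR called 456 genes in nuclei.
Iqgap1, a scaffold of the actin cytoskeleton, and Ppp1r15b, a regulatory subunit of the phosphatase that acts on eIF2α, had shifts of -0.51 and -0.48 (adjusted p = 0.91 and 0.99, edgeR). Of the 10 alternatives that left out no single library, 2 called Iqgap1, and 1 each called Ppp1r15b, Zfp451 and Skida1.

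Of the genes with a higher ratio none passed in the main fit. Those with the smallest p were Samd5 (0.50), Tmem18 (0.43), Tex13b (0.40), Btg3 (0.38), a gene of the antiproliferative BTG family, Sergef (0.37) and Pcgf6 (0.31), a Polycomb RING finger gene, each with an edgeR adjusted p of 1.00. Of the 10 alternatives that left out no single library, 1 called Samd5 and none called the rest. Tex13b differed from the lower genes in the fraction that moved. It fell in cytoplasm, from 77.4, 78.0, 74.5 and 60.0 CPM under knockdown to 51.8, 52.3, 46.9 and 45.9 CPM after rescue (-0.55, SE 0.087, edgeR adjusted p = 0.028), and its nuclear part was -0.15. Its rescued log2 ratios, 2.82, 2.73, 2.89 and 2.87, overlapped those of the controls, 2.78, 2.91 and 2.80, and lay above all knockdown ratios, 2.28 to 2.57. In cytoplasm 2 genes (0.0216%) were called higher, Chtop and Selenoo, and 1 (0.0108%) lower, Tex13b, 0.0325% together. Without replicate 2 of the pEx5 cytoplasmic knockdown there were 64 cytoplasmic calls. Selenoo, a selenoprotein gene named after its values were seen, rose by 1.01 in cytoplasm (SE 0.12, edgeR adjusted p = 0.0012) and by 0.92 in total lysate (adjusted p = 0.018). In total lysate Chtop and Selenoo were the only calls, 2 of 9237 genes (0.0217%); 341 genes (3.69%) were lower at an unadjusted p under 0.05 and none was called lower by edgeR, while DESeq2 called 22 genes, 12 of them lower.

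The lines were compared as a repeat of each other. Neither had a call on its own in the main edgeR fit, while with the replicate number as a block the pEx5 line had 8. At an unadjusted p under 0.05, 99 genes (1.07%) stood out with mEx5, 74 lower (0.801%) and 25 higher (0.271%). With pEx5 there were 187 (2.02%), 90 lower (0.974%) and 97 higher (1.05%). The median SE was 0.20 in each, and DESeq2 called 2 and 3 genes. The shift had the same sign in both lines in 5469 genes and opposite signs in 3770. Spearman's rho between the lines was 0.24 across 9239 genes, which are not independent and share the same libraries, and Pearson's r was 0.062. By culture pair, rho lay between -0.09, for the 2 pairs of the pEx5 line, and 0.26, for replicate 2 of both lines. Between lines it was 0.23 for replicate 1 of both, but 0.06 and 0.05 for pairs of different number. For the 2 pairs of the mEx5 line it was 0.25. The part of the replicate number in the rho between the lines was not tested.

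No difference between the lines passed in edgeR. Unadjusted, 17 genes (0.184%) had p under 0.05 with a lower and 77 (0.833%) with a higher shift in the pEx5 line, 1.02% in all. DESeq2 called 1 gene, the pseudogene Rpl10a-ps1. The genes named for this difference were mostly ribosomal protein genes and their pseudogene copies. Rps3a1 had a shift of 1.50 with mEx5 and -0.19 with pEx5, Rpl26 1.23 and -0.06, Rpl10a-ps1 -1.03 and 1.08, and Rpl31-ps8 -1.22 and 0.52. Such copies share long stretches of sequence, so that reads could have been split between them, and their values are uncertain. Churc1 (-0.17 and 0.91) and Cdkn2c (0.11 and -0.48), a cyclin-dependent kinase inhibitor gene, were named too.

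**Figure D3:**
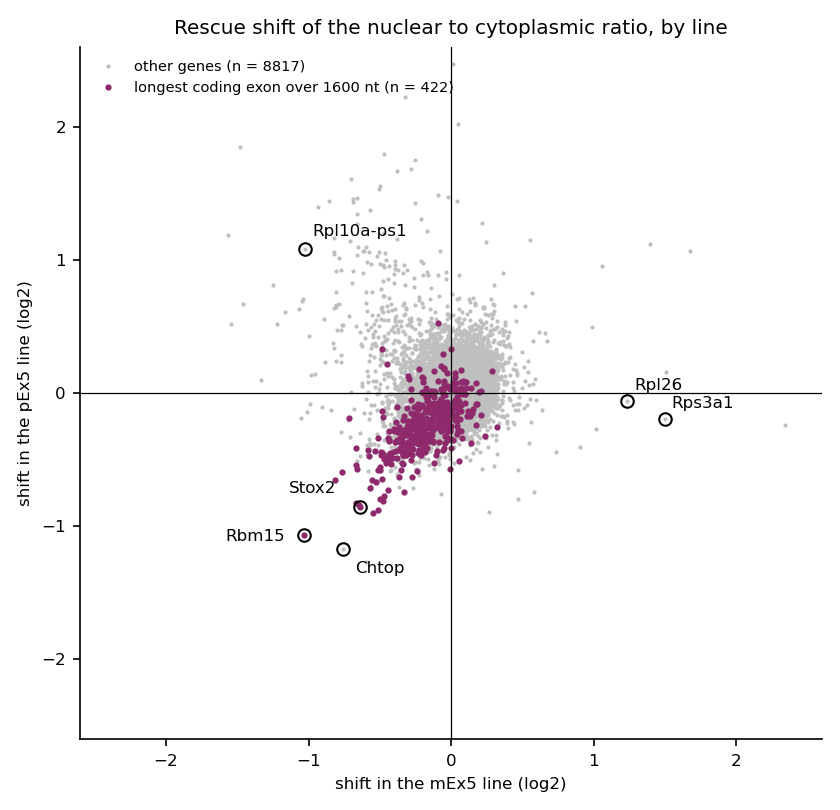
Shift in the mEx5 line (x axis) against the pEx5 line (y axis), log2, 1 point a gene, with 422 genes whose longest coding exon exceeds 1600 nt in purple. Rbm15, Chtop and Stox2 are far below 0 in both lines, and most purple points are below 0 on the y axis and the x axis.

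Some of the lower genes have a long coding exon. Rbm15, Stox2, Skida1, Ppp1r15b and Epm2aip1 each have a coding exon of over 1600 nt, as do Rbm15b (2661 nt) and Rbm12 (2976 nt), genes of other RNA-binding proteins. Chtop (203 nt), Iqgap1 (233 nt) and Zfp451 (1595 nt) do not. In GENCODE M21, 422 of the 8926 tested genes with a coding exon (4.73%) had one this long, in the transcript with the longest coding sequence. The limits were chosen after seeing the data, and what follows is a description with no test. The median shift of these 422 genes was -0.18, with 374 below 0 and 48 above. In the other 8504 genes it was 0.01. Of the 162 lower genes with an unadjusted p under 0.05, 65 (40.1%) had such an exon, and of the 87 higher ones, 0.

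The median shift stepped down along the length of the longest coding exon. It was 0.05 up to 200 nt (2693 genes), 0.01 over 200 to 400 nt (3292 genes), -0.01 over 400 to 800 nt (1535 genes) and -0.05 over 800 to 1600 nt (984 genes). Over 1600 to 3200 nt (341 genes) it was -0.16 and over 3200 nt (81 genes) -0.25. Both lines were below 0 in the longest classes, with -0.14 (mEx5) and -0.21 (pEx5) over 1600 to 3200 nt and -0.21 and -0.29 over 3200 nt. Over 3200 nt the median nuclear part was -0.15 and the cytoplasmic part 0.10. Of all 9239 genes, 1013 had a shift below 0 in all 4 culture pairs and 733 above 0, together 18.9%. Over 3200 nt it was 51 of 81 below and 0 above, and over 1600 to 3200 nt 147 of 341 below and 0 above.

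**Figure D4:**
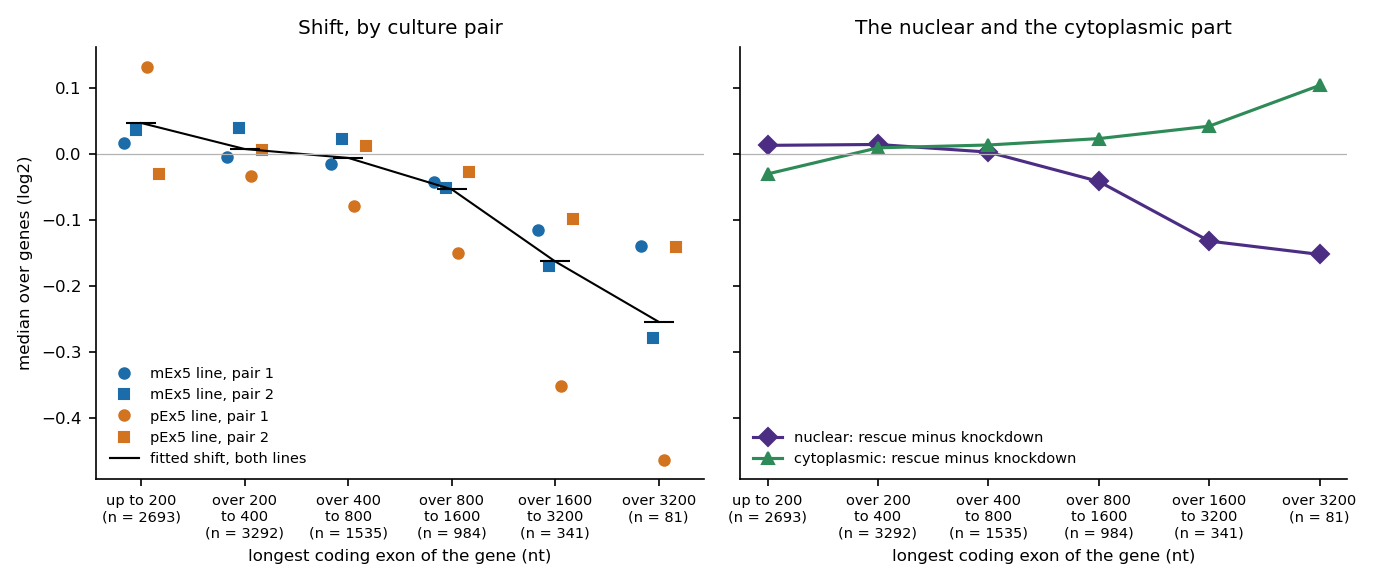
Median shift (left, by culture pair, with a line for the fitted shift of both lines) and median nuclear and cytoplasmic rescue minus knockdown (right) in log2, for genes binned by the length of their longest coding exon in nt. All 4 pairs are below 0 in the 3 longest bins, and pair 1 of the pEx5 line is the lowest there.

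The pairs were not alike. In the genes over 3200 nt the medians were -0.14 and -0.28 in the mEx5 pairs and -0.46 and -0.14 in the pEx5 pairs. Pair 1 of the pEx5 line also gave the highest median in the genes up to 200 nt, 0.13 against -0.03 to 0.04. Leaving out single libraries moved the median over 1600 nt between -0.28 (without replicate 2 of the pEx5 rescue nuclei) and -0.11 (without replicate 2 of the mEx5 knockdown nuclei, or without replicate 1 of the pEx5 rescue nuclei). Over 3200 nt it moved between -0.38 and -0.14, the latter without replicate 1 of the pEx5 rescue nuclei, and was -0.15 without replicate 2 of the mEx5 knockdown nuclei. Up to 200 nt it moved between 0.004 and 0.083, without replicate 1 and without replicate 2 of the pEx5 rescue nuclei. Without pair 1 of the pEx5 line, the mean of the other 3 gave medians of -0.18 over 3200 nt, -0.13 over 1600 nt and 0.00 up to 200 nt. The levels behind these differences overlapped: the median log2 ratio of the 422 genes was 0.12 and 0.50 in the mEx5 knockdown cultures and 0.35 and 0.54 in the pEx5 ones, against 0.02, 0.23, -0.003 and 0.40 after rescue. Replicate 1 was below replicate 2 in each of these groups. The mEx5 controls were at 0.59 and 0.59 and the pEx5 control at 0.32. The change from control to knockdown, which shares the knockdown libraries with the shift, also had a median below 0 over the same genes, -0.17. In the mEx5 line each rescued value was farther from the controls than the knockdown value of the same number was; with pEx5 this held for replicate 1 only.

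Other features of these genes were set beside exon length. Long coding exons come with long transcripts: in the class of longest transcripts (genes cut into 5 equal classes), the 272 genes with such an exon had a median of -0.20 and the 1558 others one of -0.04. In each such class of GC content, of mean CPM and of the control ratio the genes with a long exon also had the lower median, with differences between -0.11 and -0.25. Genes with 1 coding exon of up to 1600 nt, 298 of them, had a median of 0.00, while the 75 genes with 1 coding exon of over 1600 nt had -0.21. The pair medians of the 298 were -0.06 and -0.01 (mEx5) and 0.16 and -0.08 (pEx5). Those of the 75 were -0.13 and -0.28, then -0.29 and -0.19. Median transcript lengths were 1854 nt for the 298 and 3920 nt for the 75. The authors' deposited table marks 4484 of 9239 genes (48.5%) as overlapping Chtop iCLIP, a map of RNA sites bound by Chtop. Of the 422 genes 348 (82.5%) carried the mark, with a median of -0.20, and the 74 without it had -0.11. Within the 422, genes with the mark were also more abundant and longer (medians of 76.1 CPM and 6156.5 nt, against 52.6 CPM and 3946.5 nt without it). Over all genes these medians were 75.2 CPM and 3811.5 nt with the mark and 35.4 CPM and 2018 nt without it. The part of abundance and length in the numbers was not tested.

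The lowest shift of the 81 genes over 3200 nt was that of Ahnak (-0.75), which encodes a very large scaffold protein, and the highest that of Mprip (0.10). The other genes given here are among the 10 with the highest mean CPM in the class. Map1b, which encodes a microtubule-associated protein of neurons in a coding exon of 6490 nt, had -0.26 (mEx5) and -0.37 (pEx5). Srrm2 and Son, which encode scaffold proteins of nuclear speckles, had shifts of -0.19 and -0.11 over both lines. Akap12 (-0.45), a kinase anchoring protein gene, Irs2 (-0.44), an adaptor of insulin signalling, and Mki67 (-0.31), the proliferation marker, were below 0 in all 4 pairs. Naca (0.08) and Mprip were not, and the long Naca exon belongs to the transcript with the longest coding sequence, which need not be the one these cells use. None of these genes passed the test.

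The gene lists held 1 called member, Rbm15, and 11 with the replicate number as a block. Rbm15 belongs to 15 tested genes of m6A writers, erasers and readers, 1 of them called lower and 0 higher. Over all 9239 genes 2 (0.0216%) were called. The median of the 15 genes was 0.00, beside 0.01 over all genes. Rbm15b, the close relative of Rbm15 in the same complex, came next with -0.45 (unadjusted p = 0.0034, edgeR adjusted p = 1.00). It was called in 1 of the 10 alternatives that left out no single library. Its log2 ratios were 0.58, 1.07, 0.73 and 0.96 under knockdown and 0.24, 0.56, 0.20 and 0.56 after rescue, so that the groups were separate by a narrow margin. The other 13 members had shifts between -0.26 (Zc3h13) and 0.29 (Mettl16). Rbm15 is also 1 of 34 tested genes of the RBM family, whose median was 0.08, with 25 above and 9 below 0. Over all genes 4761 were above and 4478 below 0.

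No gene of the export machinery lists was called. Of 16 TREX and THO genes, 14 were above 0, with a median of 0.09; over all genes 4761 of 9239 were above 0. Thoc1 had the highest shift, 0.38 (unadjusted p = 0.12), Thoc2, the scaffold of THO, had 0.32 (unadjusted p = 0.022) and Thoc7 0.31 (unadjusted p = 0.050). All 4 pairs had a median above 0, between 0.06 and 0.20. The 20 tested genes of the NXF1 receptor, cap-binding and TREX-2 factors had a median of 0.06, with 11 above and 9 below 0, and the 54 genes of the nuclear pore and karyopherins, which carry cargo through it, one of -0.05, with 20 above and 34 below 0. The 28 SR proteins and SR-related factors, 29 hnRNP proteins and 39 transcripts with detained introns had medians of 0.07, -0.002 and 0.03, also without a call.

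Among the larger families, 206 Zfp zinc finger genes had a median of -0.07, with 135 below 0 and 17 at an unadjusted p under 0.05, all lower. Over all genes these numbers were 4478 below 0 and 162 lower (1.75%) of 9239. Of these genes 59 had a coding exon of over 1600 nt, the usual home of a zinc finger array, and a median of -0.22; the other 147 had -0.02. The 40 genes of histone lysine methyltransferases, demethylases and methyl-CpG binders had the lowest median of the lists, -0.10, with 31 below 0. Their pair medians were -0.07 and -0.06 (mEx5) and -0.29 and -0.01 (pEx5). The 6 of them with a coding exon of over 1600 nt had a median of -0.23, and the other 34 one of -0.07. The 39 proteasome subunit genes had 0.08, with 32 above 0.

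Some lists of short and abundant RNAs took their sign from 1 pair. The 74 nuclear-encoded genes of the respiratory chain and ATP synthase had a median of 0.05, made of -0.16 and -0.12 in the mEx5 pairs and 0.62 and -0.12 in the pEx5 pairs. The 14 noncoding snoRNA host genes gave -0.03, -0.28, 0.91 and -0.06, and the 85 cytosolic ribosomal protein genes -0.05, -0.13, 0.26 and -0.09. In the respiratory genes the log2 ratio of replicate 1 of the pEx5 line was -0.96 under knockdown and -0.28 after rescue, and replicate 2 had -0.85 and -1.02. The mitochondrially encoded mRNAs, RNAs of the cytoplasm that are not exported from nuclei, spread from -0.47 to 0.69 between pairs. Their share of the counts was 0.674% to 1.61% in rescued and 0.628% to 1.59% in knockdown nuclei. Replicate 1 had the higher share in each of these groups. Rescued nuclei had 1.61% and 0.674% (mEx5), 0.893% and 0.676% (pEx5), replicate 1 first. Knockdown nuclei had 1.59% and 0.817%, then 1.15% and 0.628%. The part of this share in the shifts was not tested.

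**Figure D5:**
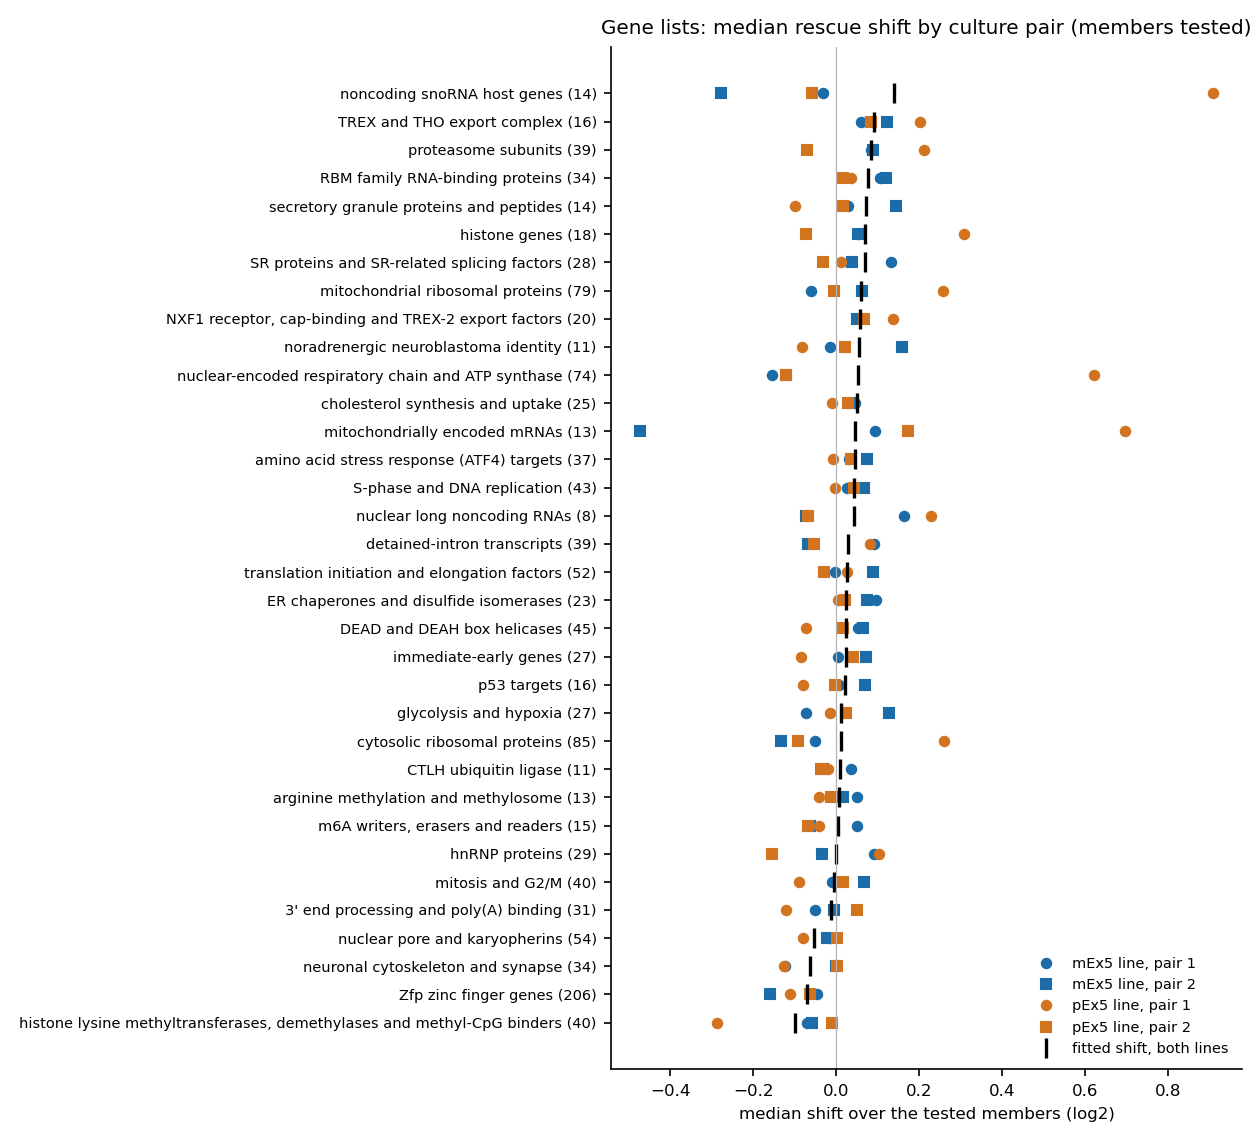
Median shift (log2) over the tested members of each gene list (number in brackets), 1 point for each of the 4 culture pairs and a bar for the fitted shift of both lines. Pair 1 of the pEx5 line stands far to the right in snoRNA host genes, respiratory chain genes and mitochondrially encoded mRNAs, and the pairs lie closer together in TREX and THO genes.

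The authors' deposited table marks 181 genes as lower in both lines and 115 as higher. Of the 181, 42 had an unadjusted p under 0.05 here and 1, Rbm15, was called; of the 115 these numbers were 15 and 0. Over all genes 2.70% had such a p and 0.0216% were called. Both lists were chosen by the authors on these libraries and are not independent evidence of the direction.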

How the data were processed

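Poly(A) RNA libraries of nuclei, cytoplasm and total lysate were measured. The authors deposited raw counts of 9239 genes; Salmon 0.14.1, DESeq2 (version not given) and mm10 are named in the submitters' processing notes, and how the genes were chosen is not stated. The deposited RPKM values, per the file headers, served for cell type markers only; 1 column without a label was not used. The authors' log2 differences are cited where credited.

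Counts were fitted with edgeR 4.0.16 (R 4.3.3): filterByExpr (0 genes removed), TMM, group means over 23 nuclear and cytoplasmic libraries, robust quasi-likelihood test, Benjamini-Hochberg, calls under 0.05. The 7 controls entered only to estimate the spread; the pEx5 cytoplasmic control (1 library) is assumed to vary like the others. Total lysate (12 libraries) was fitted apart. SE is the log2 change divided by the root of F. Values per culture are log2 CPM with a prior count of 2. No spike-in is named in the labels, so a shift is relative to the typical gene. P-values measure the spread between replicates, which the labels call biological. In the main fit, without a replicate block, this spread includes any difference shared by libraries of the same replicate number.

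The test was tried on simulated data first, drawn without a replicate or culture effect. It recovered 91 of 100 genes with a 2-fold shift and 50 of 100 with a 1.5-fold one, and called 5 unchanged genes. Nuclear and cytoplasmic libraries of 1 culture hold the same cells, per the labels' protocols; the correlations of their deviations were -0.089 to 0.50 over 4 groups. With the culture as a block the shift over both lines had 0 higher and 2 lower calls, and the pEx5 line 1 lower in place of 0.

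The comparison, genes and lists were chosen with earlier results of these data known. Named genes: Chtop; up to 12 called genes in each direction averaging 5 CPM or more with 1 sign in both lines, filled to 6 by the smallest p; up to 4 for the line difference and for each list with calls; predicted genes were passed over. Alternatives were DESeq2 1.42.0, its size factors, library totals, other filters, limma-trend (limma 3.58.1), 16 or 35 libraries, blocks and leaving out each library. Exon structure came from GENCODE M21.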

Additional observations from a re-analysis of the deposited data

Results flagged for a closer look

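In 64 sets of 4 culture pairs (named genes, exon classes and gene lists), 1 had a value far from the other 3. The median shift of the nuclear-encoded respiratory chain and ATP synthase genes was 0.62 in pair 1 of the pEx5 line, while the other pairs lay between -0.16 and -0.12. Chance marks about 1 set in 20.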

How the results depend on the processing

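None of the 24 values for single genes and 3 medians of exon classes put through the alternatives turned its direction. The medians of the gene lists were not put through them. With 2 replicates a group, the median SE of the shift was 0.14 over both lines and 0.28 for the line difference. Of the values for single genes, 596 kept their side of the threshold, 12 gained and 16 lost a call. Counts of called genes moved, main value first. DESeq2 gave 4 in place of 2 for both lines, 2 in place of 0 for mEx5, 3 in place of 0 for pEx5, 1 in place of 0 for the line difference, 89 in place of 6 for nuclei, 8 in place of 3 for cytoplasm and 22 in place of 2 for total lysate. The 16 libraries alone gave 0 for both lines, 1 for nuclei and 0 called list members in place of 1. All 35 libraries gave 1 for pEx5, 37 for nuclei and 5 for total lysate. With the culture as a block pEx5 had 1.

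Leaving out 1 library gave 0 to 2 calls for both lines, 0 to 1 for each of mEx5 and pEx5, 1 to 16 for nuclei, 2 to 64 for cytoplasm, 1 to 2 for total lysate and 0 to 1 called list members.

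The 4 culture pairs, which served for description, follow the replicate number. The main fit did not take the numbers as pairs, because the limit set, a correlation of deviations over 0.1, was not met throughout. It was met by 6 of 6 comparisons of nuclear groups (0.52 to 0.71) and by 4 of 6 of cytoplasmic ones (0.059 to 0.65). Still, for all 16 libraries the closest library of another group in the same fraction had the same number. The replicate block gave 44 calls for both lines, 43 of them lower, both main calls included. Of the 43, 28 (65.1%) had a coding exon over 1600 nt, beside 4.73% of all tested genes with a coding exon. The block also gave 1 call for mEx5, 8 for pEx5, 456 for nuclei, 112 for cytoplasm, 170 for total lysate and 11 called list members.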
